A study of Homo sapiens with 2 samples.

Results

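Spliceosomal small nuclear RNAs (snRNAs) were examined in small RNA libraries of A549 cells, an established human lung adenocarcinoma line with features of alveolar epithelium. They are the 798 features that the count table types as snRNA, out of 5475 listed features, and 765 of them could be assigned to 1 of the 10 classes U1, U2, U4, U5, U6, U7, U11, U12, U4atac and U6atac. The study kept A549 cells in DMEM with fetal calf serum for 24 h either in normoxia (20% O2) or in hypoxia (1.2% O2), and sequenced 1 small RNA library per condition. Both groups are therefore the same line, in the same medium and for the same time, and differ in the labels by oxygen alone. With 1 library per condition no difference has a replicate check, no test of the condition was possible and no p-value is given. The intervals below are 95% intervals that cover counting error only, and they are exact except for those of differences between classes. PCR reads without molecular identifiers are not independent molecules.

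Each snRNA works as the core of a ribonucleoprotein. U1 pairs with the 5′ splice site of the pre-mRNA, U2 pairs with the branch point, U4 and U6 enter the spliceosome as a base-paired duplex together with U5, and U6 then forms the catalytic centre while the loop of U5 holds the exons. A separate, minor spliceosome removes rare introns with U11, U12, U4atac and U6atac in the places of U1, U2, U4 and U6, and shares U5. U7 acts outside splicing, in the 3′ end processing of histone pre-mRNAs. U6 and U6atac are made by RNA polymerase III and the others by RNA polymerase II, and the latter carry a site for a ring of Sm proteins, which in U7 includes Sm-like proteins. An intact snRNA is longer than the fragments that a small RNA library selects, so a count here is a count of snRNA fragments, and fewer fragments cannot be told apart from less snRNA.

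The libraries held 6449337 counts in normoxia and 13115226 in hypoxia, so that the hypoxia library was 2.03 times deeper, and 3 counts corresponded to 0.465 and 0.229 CPM (counts scaled to the library total). The usual microRNA marker of hypoxia, miR-210, went from 4307 counts to 22849 in hypoxia, a log2 ratio of 1.38. The 5 epithelial microRNAs looked for (miR-200a, miR-200b, miR-200c, miR-141 and miR-429) were all detected, at 16.9 to 620 CPM in normoxia and 16.2 to 715 CPM in hypoxia. Of the microRNAs of other cell types, miR-1, miR-206 and miR-223 were not listed, miR-122, miR-124, miR-133a and miR-142 stayed between 0 and 1.37 CPM, and miR-9 and miR-126 stood at 178 and 155 CPM in normoxia and at 169 and 145 CPM in hypoxia. Over all 1639 features past the filter on low counts (a mean log2 CPM above 3), the median log2 ratio of hypoxia over normoxia was 0.13, and the ratios below are read beside that value.

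Sequences of leading features are given 5′ to 3′ in DNA letters as the table holds them, with hg19 positions from the table and capitals for the elements named with each sequence, while other elements are not marked. RNU1-2, RNU2-2P and RNU4-2 are shown for the major spliceosome, RNU1-2 as the sequence shared by the most U1 features, and RNU2-2P and RNU4-2 as the features of U2 and U4 with the most counts in hypoxia. RNU1-2 (chr1:17222475-17222638, + strand) has the 5′ splice site element ACTTACCTG from base 3 and the Sm site ATTTGTGG from base 126, and stands for 7 U1 features of identical sequence. RNU2-2P (chr11:62609091-62609281, - strand, inside an exon of WDR74) has the branch point element GTAGTA from base 33 and the Sm site ATTTTTGG from base 99. RNU4-2 (chr12:120729566-120729706, - strand) has the Sm site ATTTTTGA from base 119.
RNU1-2: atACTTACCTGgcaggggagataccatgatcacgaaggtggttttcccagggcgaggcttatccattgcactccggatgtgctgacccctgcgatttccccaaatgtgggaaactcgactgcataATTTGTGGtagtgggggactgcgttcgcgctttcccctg
RNU2-2P: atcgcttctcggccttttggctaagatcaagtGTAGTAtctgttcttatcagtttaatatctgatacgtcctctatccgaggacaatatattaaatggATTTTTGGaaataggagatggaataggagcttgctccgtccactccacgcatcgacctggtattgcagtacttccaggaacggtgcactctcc
RNU4-2: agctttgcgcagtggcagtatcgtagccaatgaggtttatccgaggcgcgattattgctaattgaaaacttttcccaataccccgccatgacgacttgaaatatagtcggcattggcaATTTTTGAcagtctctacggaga

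The minor spliceosome and U7 are shown because their classes rest on 1 gene or a few. RNU11 (chr1:28975112-28975245, + strand) has the Sm site ATTTTTTGG from base 88. RNU12 (chr22:43011250-43011399, + strand) has the branch point element TAAGGAA from base 19 and the Sm site ATTTTTGA from base 75. RNU4ATAC (chr2:122288457-122288583, + strand) has the Sm site ATTTTTGG from base 116, and RNU6ATAC (chr9:137029561-137029686, - strand) has the box AAGGAGA, which pairs with the 5′ splice site of minor introns, from base 12. RNU7-1 (chr12:7052979-7053041, + strand) has the histone pre-mRNA pairing element CTCTTTT from base 12.
RNU11: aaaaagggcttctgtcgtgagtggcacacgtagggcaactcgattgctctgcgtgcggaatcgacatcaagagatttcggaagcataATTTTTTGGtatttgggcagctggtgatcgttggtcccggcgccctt
RNU12: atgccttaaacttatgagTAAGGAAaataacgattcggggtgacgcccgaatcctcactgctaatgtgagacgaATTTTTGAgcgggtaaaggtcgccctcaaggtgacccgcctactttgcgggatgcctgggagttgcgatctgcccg
RNU4ATAC: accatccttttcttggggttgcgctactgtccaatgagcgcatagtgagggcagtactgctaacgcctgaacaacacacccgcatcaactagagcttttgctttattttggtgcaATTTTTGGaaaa
RNU6ATAC: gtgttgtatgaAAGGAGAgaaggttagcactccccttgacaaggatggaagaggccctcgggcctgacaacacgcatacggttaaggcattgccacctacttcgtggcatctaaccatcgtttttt
RNU7-1: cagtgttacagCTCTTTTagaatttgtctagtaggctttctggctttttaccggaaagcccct

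snRNA fragments took a larger share of the hypoxia library. They held 293681 counts in normoxia, 4.55% of the library (4.54 to 4.57), and 807060 in hypoxia, 6.15% (6.14 to 6.17). The log2 ratio between the conditions was 0.43 (0.43 to 0.44). Fragments of rRNA moved in the same direction, from 3.77% to 6.55% of all counts (log2 ratio 0.80), as did those of snoRNA, from 5.06% to 5.98% (0.24). Fragments of the largest tRNA type, with 571 features, went from 8.31% to 7.25% (-0.20) and miRNAs from 70.2% to 65.7% (-0.09). Mitochondrial tRNA fragments stood at 3.20% and 3.34% (0.06), and 43 features of a further tRNA type at 0.0187% and 0.0209% (0.16). Y RNA fragments stood at 2.24% and 2.36% (0.08). The part of rRNA fragments and of depth in the snRNA ratio was not tested. With rRNA left out of the total the snRNA shares were 4.73% and 6.58%, and with the mature miRNAs left out they were 15.2% and 17.9%.

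U5 dominated the snRNA fragments in both libraries. Its 29 features held 203397 counts in normoxia, 69.3% of the snRNA counts (69.1 to 69.4), and 595146 in hypoxia, 73.7% (73.6 to 73.8). U1 followed with 133 features and 15.3% and 12.8% of the snRNA counts, and U2 with 65 features and 11.4% and 9.28%. No other class reached 2% of the snRNA counts. U6, the class with the most features (413), held 0.771% in normoxia and 1.34% in hypoxia, and U4, its partner in the duplex, held 0.878% and 0.979%. Within the minor spliceosome, U12 held 0.595% and 0.38%, U6atac 0.455% and 0.218%, U11 0.247% and 0.304%, and U4atac 0.110% and 0.0943%. U7 was the smallest class with 130 and 213 counts, 0.0443% and 0.0264% of the snRNA counts. These shares do not depend on how the libraries were scaled, and the intervals of the 2 libraries overlap for U4atac alone, as the plot of U class shares shows.

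**Figure D1:**
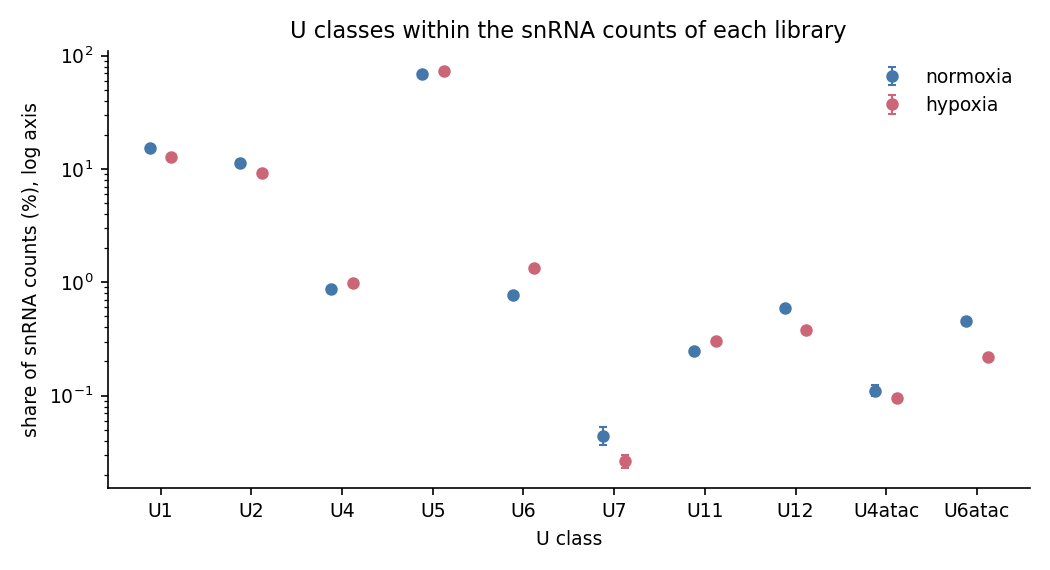
The points give the share of the snRNA counts (%, log axis) that each U class took in the normoxia and in the hypoxia library, with exact 95% counting intervals, which are smaller than the points for most classes. U5 stands at 69.3% and 73.7%, U6 lies below U4 in normoxia and above it in hypoxia, and U11 lies below U6atac in normoxia and above it in hypoxia.

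The excess of U5 was present per base as well as per feature. Summed over the features of the class, the level per kilobase of feature (RPKM) was 271718 for U5, 42633 for U1 and 27527 for U2 in normoxia. U5 thus exceeded U1 by 6.37 times in normoxia and 8.08 times in hypoxia on the RPKM scale. It exceeded U2 by 9.87 and 12.9 times on the same scale. These sums run over features that share sequence, 133 in U1 and 65 in U2, and all 65 of U2 have pseudogene names. How a read that fits several features was counted is not known, so the size of this excess depends on it. In cells the snRNAs of the major spliceosome act in equal number, and a count of fragments is not a count of these particles.

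The U classes did not share 1 ratio between the conditions. U6 had the highest, with 2263 counts in normoxia and 10841 in hypoxia, with a log2 ratio at 1.24 (1.17 to 1.30). U11 followed at 0.74 (0.62 to 0.86), then U4 at 0.59 (0.53 to 0.66) and U5 at 0.52 (0.52 to 0.53), and the intervals of U11 and U4 and those of U4 and U5 overlap. U4atac at 0.21 (0.02 to 0.40), U1 at 0.18 (0.17 to 0.20) and U2 at 0.14 (0.12 to 0.16) lay close to the median of 0.13 over all features past the filter. The classes U12, U7 and U6atac were lower in hypoxia, with U12 at -0.21 (-0.30 to -0.12), U7 at -0.31 (-0.63 to 0.01) and U6atac at -0.62 (-0.73 to -0.52), of which the U7 interval includes 0 and overlaps both others. No class changed direction under any of the 4 other scalings of the libraries, although U2 came down to 0.024. The plot of class ratios sets the classes beside the other RNA types.

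**Figure D2:**
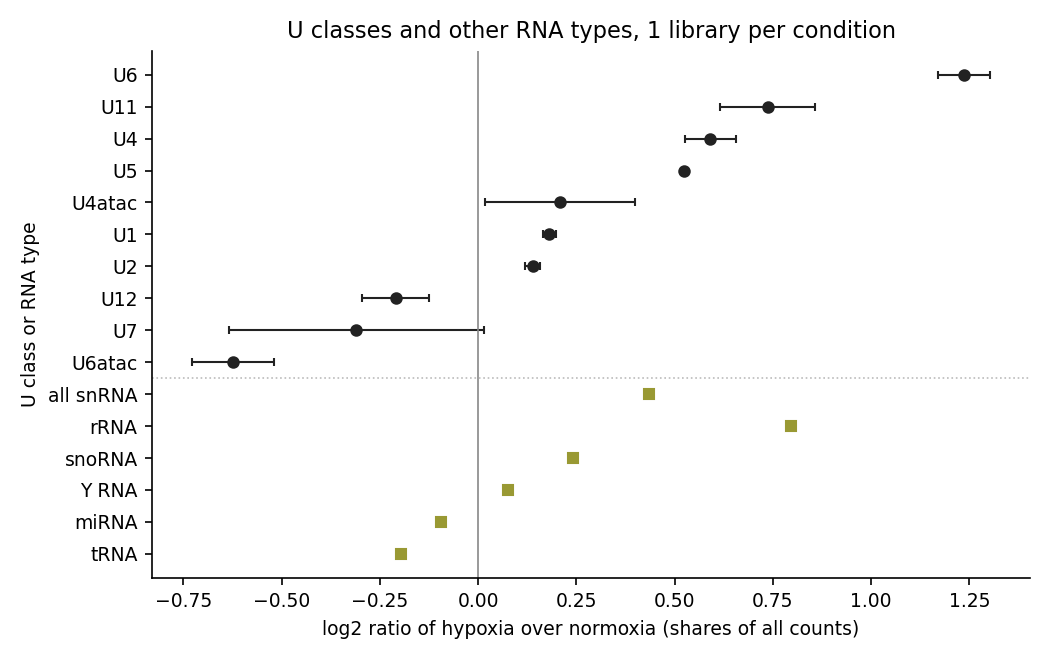
Each circle is the log2 ratio of hypoxia over normoxia of 1 U class, as a share of all counts, and each square that of all snRNA features or of another RNA type, with exact 95% counting intervals. U6 at 1.24 lies above the rRNA square at 0.80, whereas U6atac at -0.62 lies below every other class and type shown. The tRNA square is the tRNA type with 571 features.

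Partners within a spliceosome did not keep their ratio of fragments. U6 had 0.878 counts per U4 count in normoxia and 1.37 in hypoxia, and the log2 ratio of U6 exceeded that of U4 by 0.65 (0.55 to 0.74). In the minor spliceosome the order was the opposite, since U6atac had 4.12 counts per U4atac count in normoxia and 2.32 in hypoxia, a difference of log2 ratios of -0.83 (-1.05 to -0.62). U6 and U6atac themselves, both polymerase III transcripts, differed by 1.86 (1.74 to 1.98). U11 and U12, which form a single particle, had 0.415 U11 counts per U12 count in normoxia and 0.799 in hypoxia, a difference of 0.95 (0.80 to 1.09). U1 and U2 differed by only 0.04 (0.02 to 0.07). The 5 classes of the major spliceosome had 69.4 counts per count of the 4 minor classes in normoxia and 98.4 in hypoxia, a difference of 0.50 (0.45 to 0.56). These intervals are normal approximations that combine the counting errors of both classes and leave out the difference between cultures.

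Of the 798 snRNA features, 178 passed the filter on low counts, 620 did not, 73 had no count in normoxia and 1 had none in hypoxia. For counts of single features a rule of size was used, an absolute log2 ratio of 0.9 or more among features past the filter. By this rule 13 snRNA features were higher in hypoxia, 7.30% of those past the filter, and 0 were lower. Over all 1639 features past the filter, 5.74% were higher and 3.29% were lower, so past the filter the share of higher snRNA features was near the background. With no filter, 283 of the 798 snRNA features were higher, beside 18.1% of all 5475 features, and these include features with very low counts. The filter uses the mean of both libraries, and 4 of the 13 (RNU2-29P, RNU12-2P, RNU6-18P and RNU6-27P) passed it through the hypoxia library alone, as did 15 of all 178 and 50 of the 1639, while 0 of the 178 and 21 of the 1639 passed it through normoxia alone. Among the rRNA features past the filter 33.1% were higher by the same rule, and among the snoRNA features 4.50%. The median log2 ratio was 0.27 over the 178 snRNA features, 0.27 over 289 snoRNA features and 0.79 over 136 rRNA features. The features next to the limit were RNU4-2 at 0.85 and RNU2-61P at 0.82 on the lower side, and RNU5F-4P at 0.91 and RNU1-18P at 0.92 on the upper side. Of the 13, 7 were U6 features, 2 were U5, 2 were U2, 1 was U1 and 1 was U12. The U6 features RNU6-9 and RNU6-2 have identical sequence.

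**Figure D3:**
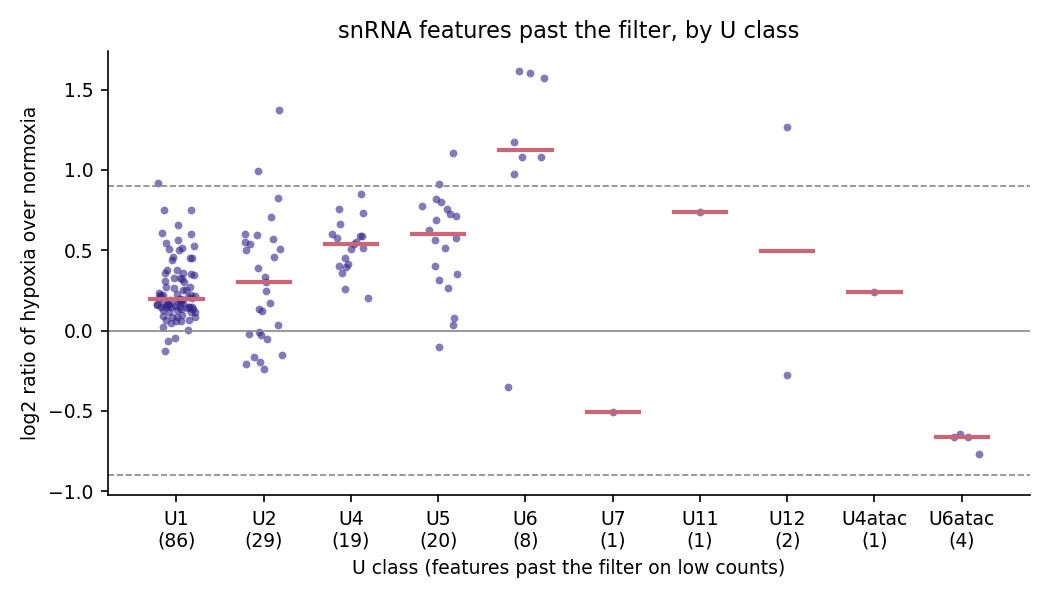
Each point is the log2 ratio of hypoxia over normoxia of 1 snRNA feature past the filter on low counts, the number of which stands under each class, the bars are class medians and the dashed lines mark the size rule at 0.9 and -0.9. The U6 median of 1.13 is the highest of the classes, although RNU6-664P lies at -0.35 and RNU2-29P at 1.37 and RNU12-2P at 1.26 lie among the U6 points, and the 4 U6atac points lie between -0.77 and -0.64.

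U5 fragments came from very few features, the genes RNU5A-1 and RNU5B-1 and RNU5A-6P, which is annotated as a pseudogene inside an intron of TTC39C on the opposite strand. RNU5A-1 had 105782 counts in normoxia and 320480 in hypoxia, with a log2 ratio at 0.58 (0.57 to 0.59), and alone held 36.0% and 39.7% of all snRNA counts. RNU5B-1 had 39706 and 103197 counts, with a ratio of 0.35 (0.34 to 0.37). RNU5A-6P had 34410 and 112816 counts, with a ratio of 0.69 (0.67 to 0.71), and thus ranked below RNU5B-1 in normoxia and above it in hypoxia. The variant gene RNU5E-1 followed with 14235 and 35944 counts, at 0.31. These features reached 90% of the U5 counts with 4 members in normoxia and with 3 in hypoxia. The other variant genes were lower still, RNU5D-1 at 1155 and 2817 counts and RNU5F-1 at 218 and 469 counts. Of the 20 U5 features past the filter, 19 had a log2 ratio above 0, beside 1012 of 1639 over all features past the filter, and the exception was RNU5A-8P with 2737 and 5185 counts, at -0.10. The highest ratio was that of RNU5E-5P, with 178 and 783 counts, at 1.11 (0.88 to 1.36).

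The counts of U5 features followed the stretch they share with RNU5A-1. RNU5A-6P is identical to RNU5A-1 at 96 of 116 bases, but at 31 of 31 bases of a stretch that holds the Sm site. The identity was 81.2% before this stretch and 56.2% after it. RNU5B-1 is identical to RNU5A-1 at 109 of 116 bases. Over the 28 other U5 features, those 9 with a stretch of at least 30 bases identical to RNU5A-1 held 96.5% of the counts of both libraries, with a median of 3972 counts against 210 for the 19 with a shorter one. Spearman's rho between the length of the stretch and the summed count was 0.83 over these 28 features, which share their sequence by descent and their libraries. The table does not say how a read that fits several features was counted, so the count of RNU5A-6P cannot be told apart from fragments of RNU5A-1 within the shared stretch.

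**Figure D4:**
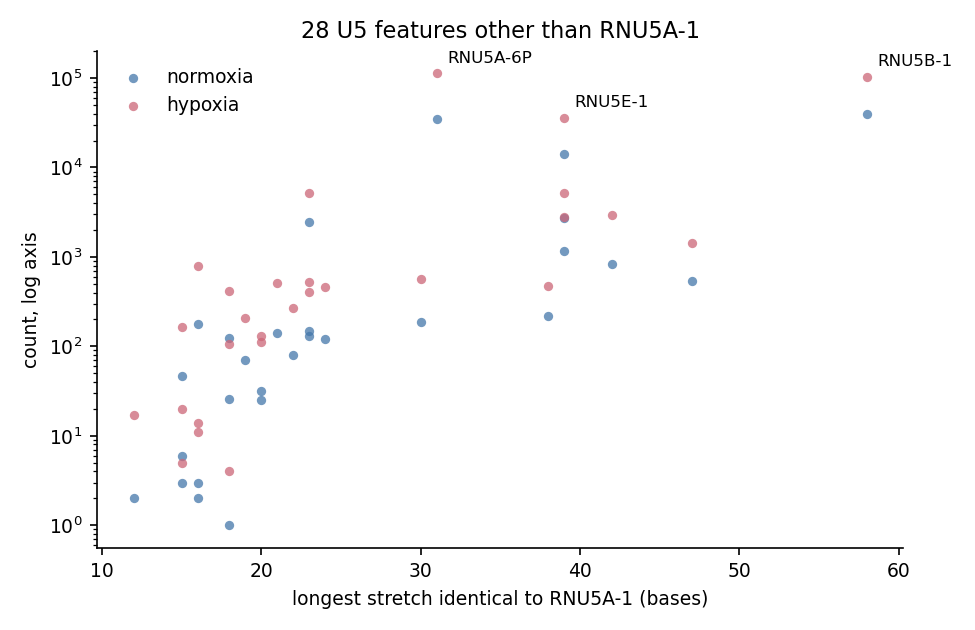
Each of the 28 U5 features other than RNU5A-1 is drawn by its longest stretch identical to RNU5A-1 (bases) and its count (log axis) in normoxia and in hypoxia. Features with a stretch under 20 bases reach at most 783 counts, and RNU5A-6P reaches 112816 counts in hypoxia with a stretch of 31 bases.

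U1 fragments were spread over many features. The 3 with the most counts were RNU1-27P with 2285 and 5092 counts, RNU1-28P with 2262 and 5095, and RNVU1-7 with 2208 and 4946, all at log2 ratios of 0.13 to 0.15, and 52 features were needed to reach 90% of the U1 counts in normoxia. RNU1-27P and RNU1-28P belong to the 7 features with the sequence shown for RNU1-2, which had 1604 to 2285 counts each in normoxia and 3641 to 5095 in hypoxia and may not be separate measurements. Their ratios lay between 0.12 and 0.17. Of the 86 U1 features past the filter, 83 had a ratio above 0 (1012 of 1639 over all features), with a median of 0.20 and a range of -0.13 to 0.92. The lowest was RNU1-59P with 85 and 158 counts, and the highest RNU1-18P with 234 and 900 counts, at 0.92 (0.71 to 1.13). The 19 features with gene names had a summed ratio of 0.14 (0.12 to 0.16) and the 114 with pseudogene names 0.21 (0.19 to 0.24).

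U2 was led by RNU2-2P, with 13960 counts in normoxia and 33718 in hypoxia, with a log2 ratio at 0.25 (0.22 to 0.28). It took 41.7% and 45.0% of the U2 counts, and without it the ratio of the class was 0.055. RNU2-59P, on the opposite strand of an intron of BTRC, had 5247 and 11708 counts, at 0.13 (0.09 to 0.18). RNU2-4P went the other way, with 3635 and 6460 counts and a ratio of -0.19 (-0.25 to -0.14), as did RNU2-23P with 1945 and 3419 counts, at -0.21. Of the 29 U2 features past the filter 20 had a ratio above 0 and 9 below, beside 1012 of the 1639 above 0 over all features. At the upper end RNU2-29P had 38 and 204 counts, at 1.37 (0.90 to 1.94), and RNU2-33P had 64 and 262 counts, at 0.99 (0.61 to 1.43).

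U4 was higher in hypoxia in both of its genes and in the sum of its pseudogenes. RNU4-2 had 355 counts in normoxia and 1303 in hypoxia, with a log2 ratio at 0.85 (0.68 to 1.03), and RNU4-1, which lies 1193 bases away on the same strand, had 380 and 1103 counts, at 0.51 (0.34 to 0.68). RNU4-58P, a pseudogene, had 131 and 398 counts, at 0.57 (0.29 to 0.88). It shares 34 bases in a row with RNU4-2, so its count cannot be told apart from fragments of RNU4-2 within that stretch. The 71 features with pseudogene names had 1844 and 5495 counts in sum, at 0.55 (0.47 to 0.63). All 19 U4 features past the filter had a ratio above 0 (1012 of 1639 over all features), from 0.20 to 0.85. The 54 features that did not pass it had 599 and 1838 counts in sum, at 0.59 (0.46 to 0.73), and the 19 that passed 1980 and 6063 counts, at 0.59 (0.52 to 0.66).

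U6 fragments were few per feature and higher in hypoxia in all but 1 of the features past the filter. RNU6-9 had 132 counts in normoxia and 822 in hypoxia, with a log2 ratio at 1.60 (1.35 to 1.89), RNU6-2 had 122 and 742 counts, at 1.57 (1.30 to 1.87), and the pseudogene RNU6-39P, in an intron of CCDC102B on its strand, had 54 and 342 counts, at 1.62 (1.22 to 2.08). RNU6-9 and RNU6-2 belong to 7 features of identical sequence, which had from 7 to 132 counts in normoxia and from 37 to 822 in hypoxia, with ratios of 0.91 to 1.60. Features of equal sequence thus differed in counts, and by more than the 7 U1 features did. RNU6-9 and RNU6-2, both past the size rule, may still not be separate measurements. Of the 8 U6 features past the filter, 7 had ratios of 0.97 to 1.62, all past the size rule, beside 5.74% of all features past the filter, and 2 of the 8, RNU6-18P and RNU6-27P, passed the filter through the hypoxia library alone. The exception was RNU6-664P, a pseudogene with 99 and 157 counts and a ratio of -0.35 (-0.73 to 0.02).

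Most U6 counts lay in features too low to be read one by one. The 405 U6 features that did not pass the filter held 72.2% of the class in normoxia and 72.1% in hypoxia, with medians of 2 and 10 counts. In sum they had 1633 and 7815 counts, a log2 ratio of 1.23 (1.16 to 1.31), beside 1.24 (1.12 to 1.37) for the 8 that passed. The 7 U6 features with gene names had 1.42 (1.27 to 1.58) and the 406 with pseudogene names 1.19 (1.12 to 1.27). Among the features that did not pass the filter, the sum was 0.36 (0.29 to 0.43) for rRNA, 0.29 (0.24 to 0.35) for snoRNA, near 0 for miRNA (-0.04 to 0.04), 0.02 (-0.02 to 0.06) for misc_RNA and 0.07 (0.05 to 0.09) for all 3216 outside the snRNA type. Low features of U1 and U2 stood at 0.42 (0.30 to 0.54) and 0.58 (0.44 to 0.71), above the 0.18 and 0.13 of those that passed. Low features of U5 stood at 1.05 (0.73 to 1.38) beside 0.52 for those that passed, an interval that includes the U6 value, and the 620 snRNA features that did not pass stood at 0.86 (0.81 to 0.91).

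U11 and U12, which recognise the 5′ splice site and the branch point of minor introns, each rested on 1 gene. RNU11 had 719 counts in normoxia and 2435 in hypoxia, with a log2 ratio at 0.73 (0.62 to 0.86), and held 99.3% of its class in both libraries. RNU12 had 1704 and 2861 counts, at -0.28 (-0.36 to -0.19), and held 97.6% and 93.2% of its class. The pseudogene RNU12-2P on chromosome X, which shares 40 bases in a row with RNU12, had 42 and 209 counts, at 1.26 (0.81 to 1.81), opposite to RNU12. Without RNU12 the class ratio was therefore 1.29 rather than -0.21. The remaining U11 features, RNU11-5P and RNU11-3P, had 4 and 16 and 1 and 2 counts.

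U6atac was lower in hypoxia, while U4atac, its partner in the duplex, lay near the median of all features, at 0.093 to 0.30 under the other scalings. RNU4ATAC had 281 counts in normoxia and 676 in hypoxia, with a log2 ratio at 0.24 (0.04 to 0.45), and held 86.7% and 88.8% of its class. Its feature was named by sequence, and without it the class ratio was -0.041 (-0.59 to 0.52), from which no direction can be read. The pseudogenes next in the class, RNU4ATAC14P and RNU4ATAC16P, had 22 and 45 and 10 and 7 counts. RNU6ATAC had 478 and 612 counts, at -0.67 (-0.84 to -0.49). The pseudogene RNU6ATAC2P had nearly the same counts, 471 and 603, at -0.67 (-0.84 to -0.49), and differs from RNU6ATAC at 1 of 126 bases, so that the 2 may not be separate measurements. A second entry with the sequence of RNU6ATAC2P, which the table places at the position of RNU6ATAC, had 2 and 1 counts. RNU6ATAC28P had 209 and 248 counts, at -0.77 (-1.05 to -0.51), and RNU6ATAC26P 83 and 107 counts, at -0.64 (-1.08 to -0.23). The 4 U6atac features past the filter, of which RNU6ATAC and RNU6ATAC2P may be 1 measurement, thus had ratios below 0 with intervals below 0, beside 1012 of 1639 above 0 over all features, and 0 of the 4 were lower by the size rule. The 19 that did not pass had 95 and 193 counts in sum, at a ratio near 0 (-0.36 to 0.37).

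U7 was near the limit of this depth. RNU7-1, which overlaps an exon of C12orf57, had 104 counts in normoxia and 148 in hypoxia, with a log2 ratio at -0.51 (-0.89 to -0.14). The other 15 U7 features, all with pseudogene names, had 26 and 65 counts in sum, at 0.30 (-0.38 to 1.01), and no direction can be read from them. RNU7-10P had 6 and 12 of these counts and RNU7-19P 4 and 11. The plot of class ratios under other settings shows how far the classes that rest on 1 gene depend on it.

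**Figure D5:**
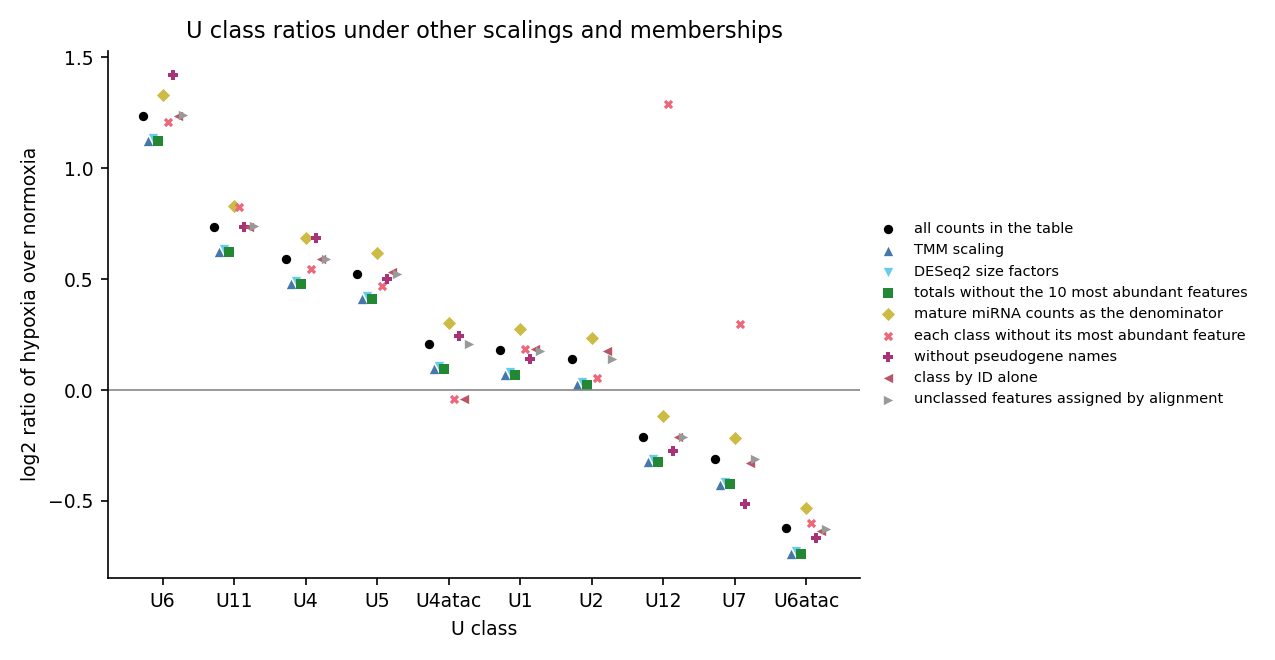
The markers give the log2 ratio of hypoxia over normoxia of each U class under the scaling to all counts, 4 other scalings and 4 other ways to choose the members. Each scaling shifts all classes by the same amount and so keeps their order. The values of U12, U7 and U4atac change sign when RNU12, RNU7-1 or RNU4ATAC is left out. The intervals of what is left in U7 and in U4atac include 0.

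Functional elements of the snRNAs stood in features that held most of the counts, and the leading features of each class were not left out. The elements were searched as exact letters on the RNA strand of each feature. The U5 loop GCCTTTTAC was in 14 of 29 U5 features, which held 81.4% of the U5 counts in normoxia and 79.6% in hypoxia, and in 0.130% of the other snRNA features. RNU5A-6P lacks it and has the U5 Sm site ATTTTTTGA, which was in 11 of 29 U5 features with 96.8% and 97.6% of the counts and in 0.520% of the others. U5 features with this Sm site had a summed log2 ratio of 0.54 and those without it 0.12, whereas for the loop the order was the opposite, with 0.49 and 0.66. RNU5A-6P, at 0.69, alone held 16.9% and 19.0% of the U5 counts, most of those without the loop. The loop contrast thus rests largely on that feature, and the features without the Sm site held few of the U5 counts. The U6 box ACAGAGA was in 273 of 413 U6 features, with 81.6% and 83.9% of the counts, and in 4.42% of the others, and the ratio was 1.28 with it and 1.04 without it. The U1 element ACTTACCTG was in 43 of 133 U1 features with 65.8% and 65.1% of the counts and in 0.451% of the others, with ratios of 0.17 and 0.21.

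The other elements also stood in features that held most counts of their class, and they were in most of the features of U6atac and in a minority of those of U4. The U1 Sm site ATTTGTGG was in 64 of 133 U1 features with 84.8% and 83.3% of the counts, and in 0.602% of the others. The U2 branch point element GTAGTA was in 35 of 65 U2 features with 92.4% and 91.6% of the counts, and in 2.05% of the others, and the Sm site ATTTTTGG, in the same letters as that of U4atac, was in 24 of 65 with 93.0% and 92.3%. The U4 Sm site ATTTTTGA, in the same letters as that of U12, was in 33 of 73 U4 features with 72.5% and 74.2% of the counts, and in 1.93% of the others. The U6atac box AAGGAGA was in 18 of 23 U6atac features with 83.2% and 83.8% of the counts, and the ratios were -0.61 with it and -0.68 without it.

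The same was computed for the other classes with enough features, and the relation was weak in U6atac and near 0 in U7. Spearman's rho between the summed count and the longest stretch shared with the leader, the most abundant feature with a gene name (in U2 the most abundant of all), was 0.79 over 132 U1 features, 0.50 over 64 U2 features, 0.39 over 72 U4 features, 0.60 over 412 U6 features, 0.21 over 22 U6atac features and 0.08 over 15 U7 features. The points share their libraries and their ancestry, and the values are descriptions. In U1 the 83 features with a stretch of at least 20 bases held 94.7% of the counts outside the leader RNVU1-7, and in U6 the 313 such features held 92.2% of those outside RNU6-9. Over all classes 51 features fell into 20 sets of identical sequence, which leaves 767 distinct sequences among the 798 features.

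The 33 features that no GENCODE name could place in a class held 2918 counts in normoxia and 6660 in hypoxia. They were led by entries on chromosome 1, ENST00000391242 (chr1:149514090-149514256) with 1432 and 3046 counts, at a log2 ratio of 0.06 (-0.03 to 0.16), and ENST00000391154 (chr1:147994146-147994313) with 814 and 1657 counts, at 0.00 (-0.12 to 0.12). ENST00000384609 (chr12:56268462-56268625) had 113 and 329 counts, at 0.51 (0.21 to 0.84). The best alignment of all 3 was to U1, and assigning the unclassed features by alignment, which placed all but ENST00000516804 with 3 and 2 counts, changed no class ratio by more than its counting interval.

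The small Cajal body RNAs (scaRNAs), which guide the chemical modification of snRNAs, had ratios spread around those of all features. Of the 21 listed, 12 passed the filter, and 0 were higher and 0 lower by the size rule, a number of features from which little can be read beside the 5.74% and 3.29% over all features. Of the 12, 9 had a log2 ratio above 0, which cannot be told from the 1012 of 1639 over all features. Their median log2 ratio was 0.16, beside 0.13 for all features past the filter, and the range was -0.15 for SCARNA20, with 97 and 177 counts, to 0.68 for SCARNA1, with 82 and 268 counts. SCARNA7, the most abundant, had 425 and 859 counts, at -0.01. SCARNA16 and SCARNA14 had 274 and 803 and 141 and 456 counts, at 0.53 (0.33 to 0.73) and 0.66 (0.39 to 0.95).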

How the data were processed

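Small RNA of A549 cells was sequenced on the SOLiD platform from 2 µg of total RNA, after ligation of adapters, PCR and selection by size. The authors deposited raw counts per feature, not normalized. Per the methods, SOLiD small RNA reads were processed with LifeScope and miRBase, without naming this experiment. The labels name hg19, and the source of the snRNA entries and the treatment of multiply mapping reads are not given in the sources used here. No entry of the table sums to fewer than 3 counts.

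The snRNA entries carry transcript IDs and no U name. Classes were therefore taken from GENCODE version 29, for 743 features by ID and for 22 by an exact match of the whole sequence, and 33 stayed unclassed. Strand and neighbouring genes come from the same annotation, positions and sequences from the table. Shares were computed of all counts and of the snRNA counts, with exact binomial intervals, and ratios with exact conditional binomial intervals, both at 95%. Differences of log2 ratios between classes were given 95% intervals by a normal approximation from the counting errors. Ratios of single features used log2 CPM with a prior count of 2. The size rule took a log2 ratio of at least 0.9 and a mean log2 CPM above 3. Named were the 3 features of each class and of the unclassed with the most counts, the 5 largest and 5 smallest ratios past the size rule (0 were lower) and miR-210, and others were named after their values were seen. Members, lists and rules were chosen with earlier results of these data known. Alternatives used TMM factors of edgeR 4.0.16, size factors of DESeq2 1.42.0, other denominators and other memberships. Calculations were tested on simulated data, with Python 3.11.15, scipy 1.17.1 and R 4.3.3. Some sequences are not reported here.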

Additional observations from a re-analysis of the deposited data

How the results depend on the processing

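No paired analysis was possible because there was 1 library of each condition, which also left none to leave out. Every class kept its direction under the scalings. In the order TMM, DESeq2 size factors, totals without the 10 most abundant features and mature miRNA counts as denominator, the log2 ratio was 0.32, 0.33, 0.32 and 0.53 for all snRNA, 0.067, 0.080, 0.068 and 0.28 for U1, 0.024, 0.037, 0.025 and 0.23 for U2, 0.48, 0.49, 0.48 and 0.69 for U4, 0.41, 0.42, 0.41 and 0.62 for U5, 1.12, 1.13, 1.12 and 1.33 for U6 and -0.32, -0.31, -0.32 and -0.12 for U12. U6atac came to -0.74 with TMM and without the 10 most abundant features. The scalings shifted every ratio by -0.11, -0.10, -0.11 and 0.09. Without the most abundant feature the ratio was 0.35 for all snRNA, 0.055 for U2, 0.47 for U5, 0.30 for U7, 1.29 for U12 and -0.041 for U4atac. Without pseudogene names it was 0.14 for U1, 0.69 for U4, 0.50 for U5 and 1.42 for U6, and U2 has no gene name to be left. With classes by ID alone, an alternative chosen after seeing the data, it was 0.17 for U2 and -0.041 for U4atac. The snRNA share was 15.2% and 17.9% without mature miRNAs and 4.73% and 6.58% without rRNA. The U5 share of the snRNA counts was 85.6% in normoxia and 88.1% in hypoxia without pseudogene names, 58.1% and 62.6% with each class without its most abundant feature and 68.4% and 73.1% by ID alone, and in hypoxia 74.0% with 1 entry per set of equal counts. By the size rule with no filter, 283 of the 798 snRNA features were higher and 9 lower, beside 18.1% and 7.09% of all 5475 features. Of the 178 snRNA features past the filter, 11 were higher and 1 lower with the deeper library thinned. Over all features past the filter the shares were then 6.16% and 3.29%. The numbers were 9 and 0 with TMM (over all features 3.84% and 4.39%), with DESeq2 size factors (4.09% and 4.09%) and at a limit of 1 (4.09% and 2.56%). Depth limits U7 and the 620 features that did not pass the filter.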
